A study of Mus musculus with 6 samples.

Results

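The genes described here carry insulin and insulin-like growth factor (IGF) signalling to the kinases AKT and mTORC1. They are 10 of the 54532 rows of the deposited gene count table, taken by symbol: the receptors Insr and Igf1r, the adaptors Irs1 and Irs2, the kinases Akt1 and Sgk1, the transcription factors Foxo1 and Foxo3, and the mTORC1 regulators Tsc1 and Rheb. All 10 held enough counts to be tested. As background, insulin and IGF1 bind the receptor tyrosine kinases INSR and IGF1R, which phosphorylate IRS1 and IRS2 and so switch on the lipid kinase PI3K. Its product recruits AKT to the membrane, while SGK1, a kinase close to AKT, is switched on by the same upstream kinases. AKT keeps FOXO factors out of the nucleus and inhibits the TSC complex, the brake on the small GTPase RHEB, which activates mTORC1. The pathway is known for supporting the growth and survival of pancreatic beta cells, and several proteins induced by endoplasmic reticulum (ER) stress restrain it.

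Total RNA was sequenced in bulk from 6 samples labelled NIT-1. NIT-1 is an insulinoma line from a NOD mouse that carried SV40 large T antigen under a rat insulin promoter. The beta-cell markers described below went against this label. In the EVs group (3 libraries) the cells had 16 h with hucMSC-EVs, vesicles shed by mesenchymal stem cells of the human umbilical cord, and then 8 h with Tm. In the ERS group (3 libraries) they had 16 h with PBS and then 8 h with Tm. Tm is read here as tunicamycin, which blocks N-linked glycosylation and so loads the ER with misfolded proteins. A treatment label marks the ERS samples as untreated, but the design text gives Tm to both groups and was followed. Cells without Tm are not analysed here, and every difference below sets vesicles against PBS in cells under Tm. Whether the samples within a group were grown as separate cultures is not stated, so the p-values cover only how these samples varied, and that variation may be technical.

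The libraries held 28654248 to 31747138 counts in EVs and 30714404 to 32550268 in ERS. The mitochondrial genome took 2.884% to 2.974% of the counts in EVs and 2.428% to 2.57% in ERS. Levels are given as CPM, counts scaled to library size, and differences as log2 fold changes, EVs minus ERS. A gene passed at an edgeR quasi-likelihood p, adjusted over all 16844 tested genes, under 0.05. Of these genes 47.4% passed, 22.6% higher and 24.7% lower in EVs. Which direction held more genes turned with the scaling: 3808 were higher and 4168 lower as reported, 4307 higher and 3706 lower with library size alone, and 4357 higher and 3659 lower with upper-quartile factors. For 54.5% of them, no EVs value fell within the range of ERS or the other way round.

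The markers went against the labelled beta cell. None of 15 beta-cell markers had enough counts to be tested, and 8 of them (Ins2, Iapp, Pdx1, Nkx6-1, Slc30a8, Neurod1, Nkx2-2 and Pcsk1) were at 0 in all 6 libraries. The 15 together summed to 0.31 to 1.34 CPM in EVs and 0.199 to 0.66 CPM in ERS. Among the other pancreatic types, all 4 acinar markers were at 0, Ppy of PP cells had 0 to 1 count a library, and of the alpha-cell markers Gcg was too low to test, with Irx2 and Ttr at 0. Of the delta-cell markers Sst was at 0 and Hhex fell (log2 fold change -0.24), with sums of 18.2 to 19.8 CPM in EVs and 21.3 to 24.1 CPM in ERS. Of the duct markers Krt19 and Cftr were at 0 and Sox9 rose (0.37), with sums of 79.2 to 82.3 CPM in EVs and 61.6 to 63.5 CPM in ERS. Of 6 fibroblast markers Col3a1 rose (0.80), Col1a1 (-0.77) and Pdgfrb (-1.54) fell, Pdgfra did not pass, and Col1a2 and Thy1 were too low to test. They summed to 17.3 to 20.2 CPM in EVs and 22.5 to 23.7 CPM in ERS. Of 4 macrophage markers only Cd68 was tested and it rose (0.48, adjusted p = 0.0482), with sums of 4.5 to 6.41 CPM in EVs and 2.72 to 4.46 CPM in ERS. Of 3 endothelial markers Pecam1 fell (-0.21), Cdh5 did not pass and Kdr was at 0, with sums of 29 to 30.6 CPM in EVs and 31.6 to 33.6 CPM in ERS. The part of these markers in the differences below was not tested.

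Start sites of the members were read for sequence elements, to show which regulatory letters lie near them. The 250 bases before each RefSeq start (GRCm38.p6) were searched on both strands, 15 windows for 9 members, and 32851 windows in all. The E-box CACGTG, bound by helix-loop-helix factors such as TFEB, USF and MYC, was in 6.02% of all windows and in windows of 4 members (Irs1, Irs2, Rheb and 1 of 6 Sgk1 windows). A glucocorticoid response element (AGAACANNNTGTNCT) was in 12 of the 32851 windows (0.0365%), of which 1 was the same Sgk1 window. A FOXO element (GTAAACA, 3.17% of all windows) was in 1 of 2 Akt1 windows. The CCAAT box (CCAAT, 33.8%) was in windows of Foxo1, Irs2 and Sgk1. No member window held the XBP1 and ATF6 element TGACGTGG (0.563%), the ER stress response element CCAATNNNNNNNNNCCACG, which contains a CCAAT box (0.113%), the CHOP and ATF4 element TGATGNAAT (0.816%), the cyclic AMP response element TGACGTCA (1.55%) or the AP-1 element TGANTCA (6.75%). The stretches of 30 bases round the 6 matches of interest follow, 5′ to 3′ on the gene's strand, with the match in capitals. They lie at chr1:82291537-82291566 (minus strand) for Irs1, chr8:11008956-11008985 (minus) for Irs2, chr5:24842440-24842469 (minus) for Rheb, chr10:21993640-21993669 and chr10:21993694-21993723 (plus) for Sgk1, and chr12:112675027-112675056 (minus) for Akt1.
Irs1 E-box, first base at -115 from the start: cagaggctccgtCACGTGttttgctcctct
Irs2 E-box, first base at -44: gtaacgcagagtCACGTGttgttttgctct
Rheb E-box, first base at -96: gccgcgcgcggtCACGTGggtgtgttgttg
Sgk1 E-box, first base at -246: tcctCACGTGttcttggcatggctaggatt
Sgk1 glucocorticoid response element, first base at -189: tgcggaaAGAACAGAATGTTCTcggagatt
Akt1 FOXO element, reverse complement, first base at -161: atctaccctctTGTTTACactcctggtgaa
The E-box stood in members of every call: Irs1 and Irs2, which did not pass, Rheb, which fell, and Sgk1, which rose. A match is a description of the letters, and gene counts do not show which of several starts these cells used.

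Of the 10 members, Igf1r, Akt1 and Sgk1 rose in EVs, Tsc1 and Rheb fell, and Insr, Irs1, Irs2, Foxo1 and Foxo3 did not pass. The 5 that passed are 50% of the members, close to the 47.4% of all tested genes. The median log2 fold change of the members was 0.03 and the median absolute change 0.16, against 0.01 and 0.28 over all genes tested. For 6 of the 10 members, the 5 that passed and Insr, the groups did not overlap. Among all tested genes that share was 54.5%, so the members were near it. Together the members summed to 1278, 1296 and 1274 CPM in EVs and to 1152, 1133 and 1138 CPM in ERS. Members differ from most genes in 2 ways that bear on these shares. First, 7 of them are among the 3369 genes with the highest levels (80.9 CPM and above), of which 73.9% passed. Also, 7 are among the 3367 longest genes (6549 bases and above), of which 23.2% were higher and 38.2% lower in EVs.

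**Figure D1:**
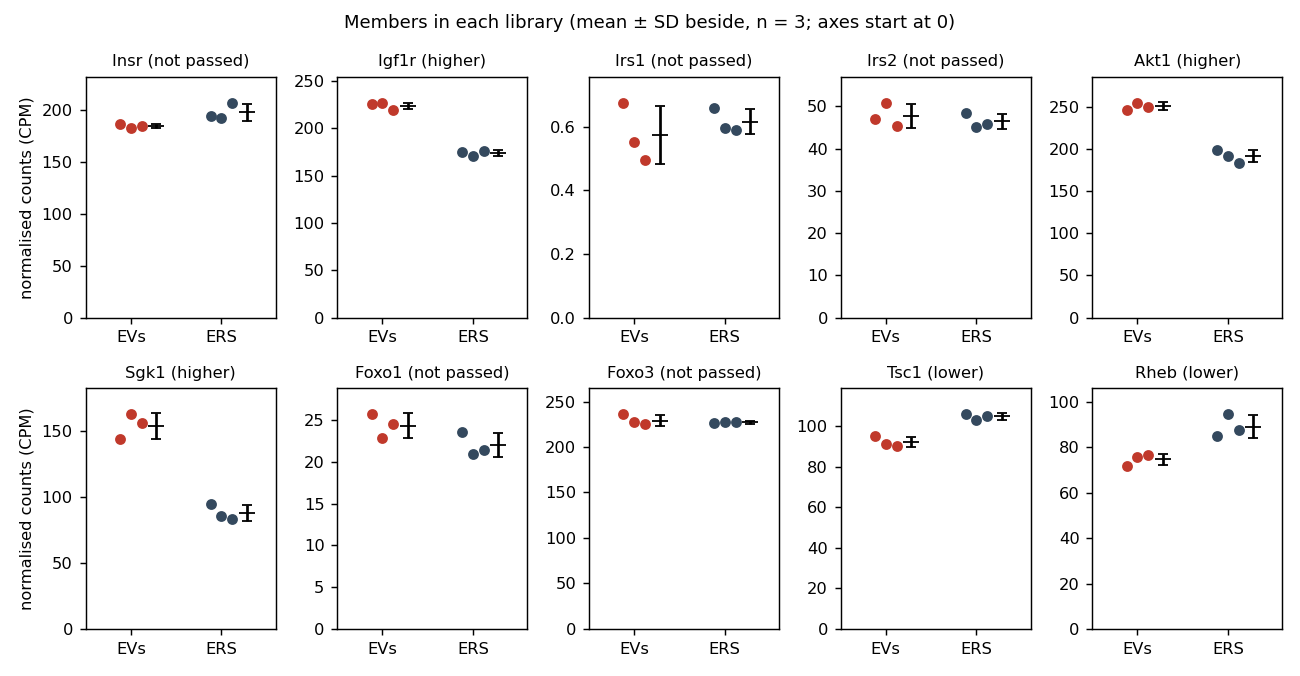
Level of each member in CPM (vertical axis from 0) in the 3 EVs libraries (red) and the 3 ERS libraries (dark), with the mean and SD of each group beside the points. The groups lie apart for Insr, Igf1r, Akt1, Sgk1, Tsc1 and Rheb, and overlap for Irs1, Irs2, Foxo1 and Foxo3.

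The receptors moved apart. Igf1r (chr7:67952827-68233668, plus strand, GRCm38 as for all genes below), the receptor of IGF1 and IGF2, had 226, 227 and 220 CPM in EVs 1 to 3, against 175, 171 and 176 CPM in ERS 1 to 3. Every EVs library was above every ERS library. The log2 fold change was 0.37 ± 0.04 (SE; 95% interval 0.28 to 0.45), a 1.29-fold higher level (edgeR adjusted p = 3.94e-08). Insr (chr8:3122061-3279617, minus strand), the insulin receptor, had 187, 183 and 185 CPM in EVs, against 194, 192 and 207 CPM in ERS. The groups did not overlap, but the difference was small, at -0.10 ± 0.04 (interval -0.18 to -0.01), and did not pass after adjustment over all genes (edgeR adjusted p = 0.059). It passed without ERS replicate 1 (adjusted p = 0.0386) and without ERS replicate 2 (0.0285). Divided by gene length, the Igf1r to Insr ratio was 0.99, 1.01 and 0.978 in EVs, against 0.739, 0.726 and 0.696 in ERS. So both receptors had like levels per length in EVs, while in ERS Insr was the higher one in each library. With 3 libraries a group, the exact two-sided permutation test of such a ratio cannot go below p = 0.1, which this one reached (0.2 after adjustment over 8 ratios). In bulk RNA, fewer cells of a type and less RNA per cell cannot be told apart.

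Irs2 was the main IRS adaptor transcript and did not pass. Irs2 (chr8:10984681-11008458, minus strand), which couples the receptors to PI3K and is the IRS protein most tied to beta-cell mass in mice, had 46.9, 50.8 and 45.4 CPM in EVs, against 48.4, 45.2 and 45.7 CPM in ERS. The groups overlapped, with a log2 fold change of 0.04 ± 0.06 (interval -0.09 to 0.17, edgeR adjusted p = 0.643). Irs1 (chr1:82233101-82291416, minus strand), its paralog in muscle and fat, was near the detection limit, at 0.675, 0.552 and 0.497 CPM in EVs and 0.66, 0.596 and 0.591 CPM in ERS. These levels rest on 111 reads over the 6 libraries, and the interval of its log2 fold change ran from -0.97 to 0.77 (adjusted p = 0.869), so a moderate change of Irs1 was not detectable at this depth. Per length, Irs2 took 99% of the IRS family in EVs and in ERS. Both E-boxes printed above lie before the starts of these genes. Gm9747, on the opposite strand, shares 30.86% of the Irs1 exon bases, and 9530052E02Rik shares 2.56% of those of Irs2. Gm9747 had 0 counts, and 9530052E02Rik had 434 against 8771 for Irs2. The strand setting of the counting is not given in the sources used here.

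The kinases rose, and Sgk1 most of all members. Sgk1 (chr10:21882184-21999903, plus strand), a kinase whose transcript is known to be induced by glucocorticoids, serum and cell shrinkage, had 144, 163 and 156 CPM in EVs, against 95, 85.7 and 83.6 CPM in ERS. The lowest EVs library was well above the highest ERS library. The level was 1.75-fold higher in EVs (log2 fold change 0.81 ± 0.05, interval 0.70 to 0.92, edgeR adjusted p = 5.8e-12), a size above 88.4% of all tested genes in absolute terms. Akt1 (chr12:112653821-112674884, minus strand), the most widely expressed AKT, had 246, 255 and 250 CPM in EVs, against 199, 192 and 184 CPM in ERS. Again no libraries overlapped, and Akt1 was 1.31-fold higher in EVs (0.39 ± 0.04, interval 0.30 to 0.47, adjusted p = 2.78e-08). The fold change of Sgk1 was larger than that of Akt1. Per length, the Sgk1 to Akt1 ratio was 0.487, 0.533 and 0.522 in EVs, against 0.399, 0.374 and 0.38 in ERS (exact permutation p = 0.1, the smallest possible; 0.2 adjusted). The window that holds the printed Sgk1 elements belongs to 1 of its 6 annotated starts.

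The genes nearest in pattern to the kinases were chosen by the root mean square difference of centred log2 CPM over the 6 libraries, among tested genes with a mean of at least 1 CPM. For Sgk1 they were Nrm at a difference of 0.040, Rapgef3 at 0.042 and Scap at 0.043. Their log2 fold changes were 0.94, 0.85 and 0.84. For Akt1 they were Mcm7 at 0.019, Vill at 0.020 and Hs6st1 at 0.021, with log2 fold changes of 0.40, 0.42 and 0.38. Before the log2 was taken, a small constant was added to each CPM. This shrinks differences at low levels, such as those of Nrm (17.3 CPM in EVs and 9.03 CPM in ERS).

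Neither FOXO member passed by edgeR, DESeq2 or limma-voom, or at an unadjusted edgeR p under 0.05 (0 of 2). Foxo3 (chr10:42181841-42276755, minus strand), a factor that drives stress resistance and death genes, had 236, 227 and 225 CPM in EVs, against 226, 228 and 227 CPM in ERS. The groups overlapped, and the interval of the log2 fold change was narrow, from -0.07 to 0.10 (0.01 ± 0.04, edgeR adjusted p = 0.806). Foxo1 (chr3:52268336-52353221, plus strand), the FOXO factor best known for its part in beta-cell identity, had 25.7, 22.8 and 24.5 CPM in EVs, against 23.6, 21 and 21.4 CPM in ERS. One EVs library lay below the highest ERS library, and the log2 fold change was 0.15 ± 0.08 (interval -0.02 to 0.32, adjusted p = 0.151). The antisense gene Gm20402 shares 7.78% of the Foxo1 exon bases and had 0 counts.

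The mTORC1 regulators fell, by small amounts. Rheb (chr5:24802823-24842624, minus strand), the GTPase that activates mTORC1, had 72, 75.6 and 76.5 CPM in EVs, against 84.8, 94.6 and 87.8 CPM in ERS. All EVs libraries were below all ERS libraries, a 1.19-fold lower level (log2 fold change -0.25 ± 0.05, interval -0.36 to -0.15, edgeR adjusted p = 0.000278). Tsc1 (chr2:28641228-28691167, plus strand), hamartin, which stabilises the TSC complex and so holds RHEB down, had 95.1, 91.2 and 90.3 CPM in EVs, against 106, 103 and 105 CPM in ERS. These groups did not overlap either, and Tsc1 was 1.13-fold lower (-0.18 ± 0.05, interval -0.28 to -0.09, adjusted p = 0.00213). An activator and an inhibitor of mTORC1 thus fell together, and their ratio per length, Rheb to Tsc1, averaged 1.24 ± 0.0728 in EVs and 1.31 ± 0.097 in ERS (SD, n = 3 each; exact permutation p = 0.5). When the test was set against a fold change of 1.2, neither passed (glmTreat adjusted p = 0.628 for Rheb and 1 for Tsc1).

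Levels can be set against each other only per length, as CPM per kilobase of gene length (RPKM). In EVs, Akt1 was highest (60.1 to 62.3 RPKM), then Sgk1 (29.3 to 33.2) and Foxo3 (29.7 to 31.2), whose ranges overlapped. Insr (13.3 to 13.6) and Igf1r (13.1 to 13.5) overlapped too, followed by Rheb (9.33 to 9.91), and then by Tsc1 (7.63 to 8.03) and Irs2 (7.18 to 8.04), which overlapped. Foxo1 (2.63 to 2.97) and Irs1 (0.0543 to 0.0738) came last. In ERS no neighbours in the order overlapped, and the order itself differed: Akt1 (44.9 to 48.6), Foxo3 (29.8 to 30.2), Sgk1 (17 to 19.4), Insr (14 to 15), Rheb (11 to 12.3), Igf1r (10.2 to 10.5), Tsc1 (8.68 to 8.99), Irs2 (7.14 to 7.66), Foxo1 (2.42 to 2.72) and Irs1 (0.0646 to 0.0722). Sgk1 thus overlapped Foxo3 in EVs and was below it in ERS, and Igf1r was above Rheb in EVs and below it in ERS.

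Each member was also set against its gene family, as a share of the family's summed level per length. Insr took 50.1% ± 0.447 of the receptors in EVs and 58.1% ± 0.751 in ERS, and Igf1r took 49.8% ± 0.465 in EVs and 41.9% ± 0.751 in ERS (SD, n = 3 each, here and below). Akt1 took 77.2% ± 0.649 of the summed level of Akt1 and Akt2 in EVs and 75.3% ± 0.497 in ERS, the rest being Akt2. Sgk1 took 99% ± 0.26 of the SGK kinases in EVs and 98.5% ± 0.487 in ERS. Foxo3 took 69.2% ± 0.186 of the FOXO factors in EVs and 72% ± 1.08 in ERS, while Foxo1 took 6.41% ± 0.317 in EVs and 6.08% ± 0.351 in ERS. Rheb took 47.9% ± 1.48 of the RHEB pair in EVs and 55.2% ± 2.38 in ERS, the rest being Rhebl1, a close paralog. The shares of Insr, Igf1r, Akt1, Sgk1, Foxo3 and Rheb did not overlap between groups, while those of Irs1, Irs2, Foxo1 and Tsc1 did, with Tsc1 at 39.2% ± 1.56 of the TSC complex in EVs and 41.3% ± 0.685 in ERS. For Sgk1 the groups all but touched, since the lowest EVs share and the highest ERS share both rounded to 98.8%. The ratio of Akt1 to Akt2 was 3.39 ± 0.123 in EVs and 3.06 ± 0.0827 in ERS, and that of Akt1 to Foxo3 was 2.02 ± 0.0806 in EVs and 1.56 ± 0.0676 in ERS. Each had an exact permutation p of 0.1, the smallest possible (0.2 adjusted). The ratios Irs2 to Irs1, Foxo3 to Foxo1 and Tsc1 to Tsc2 overlapped between groups, with exact permutation p of 0.4, 0.2 and 0.3.

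**Figure D2:**
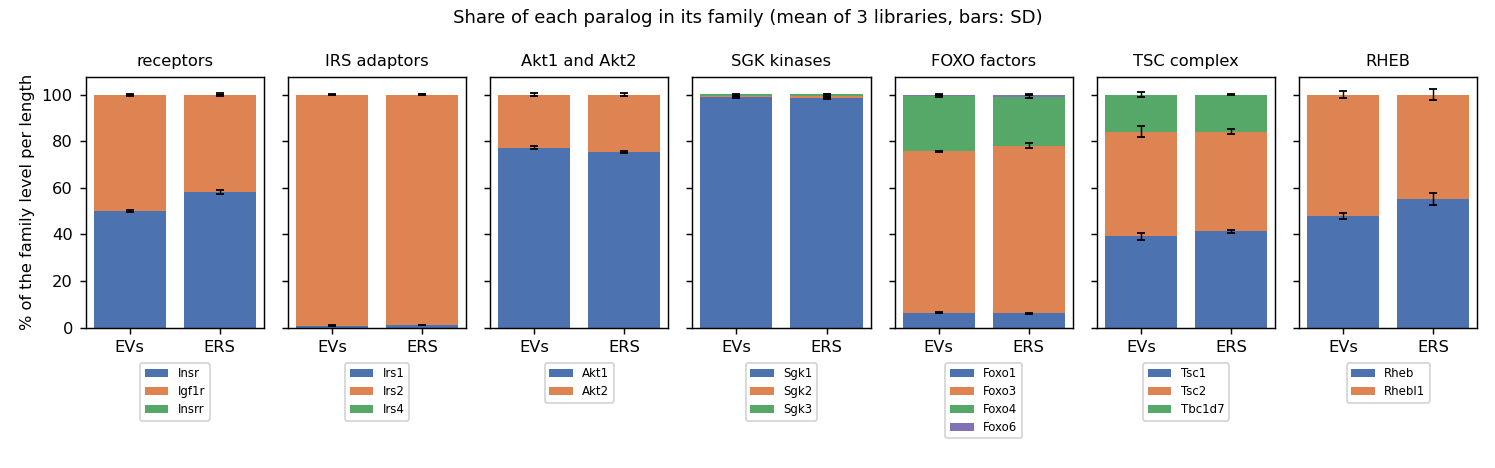
Share of each gene in its family's summed level per length, in percent (stacked bars, mean of 3 libraries, error bars SD), EVs left and ERS right in each panel. Insr made up 50.1% of the receptors in EVs and 58.1% in ERS, and Rheb 47.9% of the RHEB pair in EVs and 55.2% in ERS, while Irs2 and Sgk1 took nearly all of their families in both groups.

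The rest of the pathway, 131 genes listed by role, held 112 tested genes. Of these 26 rose, 37 fell and 49 did not pass, so that 56.2% passed against 47.4% of all genes, and their median log2 fold change was -0.05. These shares were not matched for level. Among all tested genes, 14.1% passed at 0.207 to 1.18 CPM and 73.9% at 80.9 CPM and above. The largest change was that of Trib3 (-2.15), one of the stress-induced inhibitors of AKT and mTORC1 described below. Samtor and Kics2 were not matched to a symbol in the table.

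**Figure D3:**
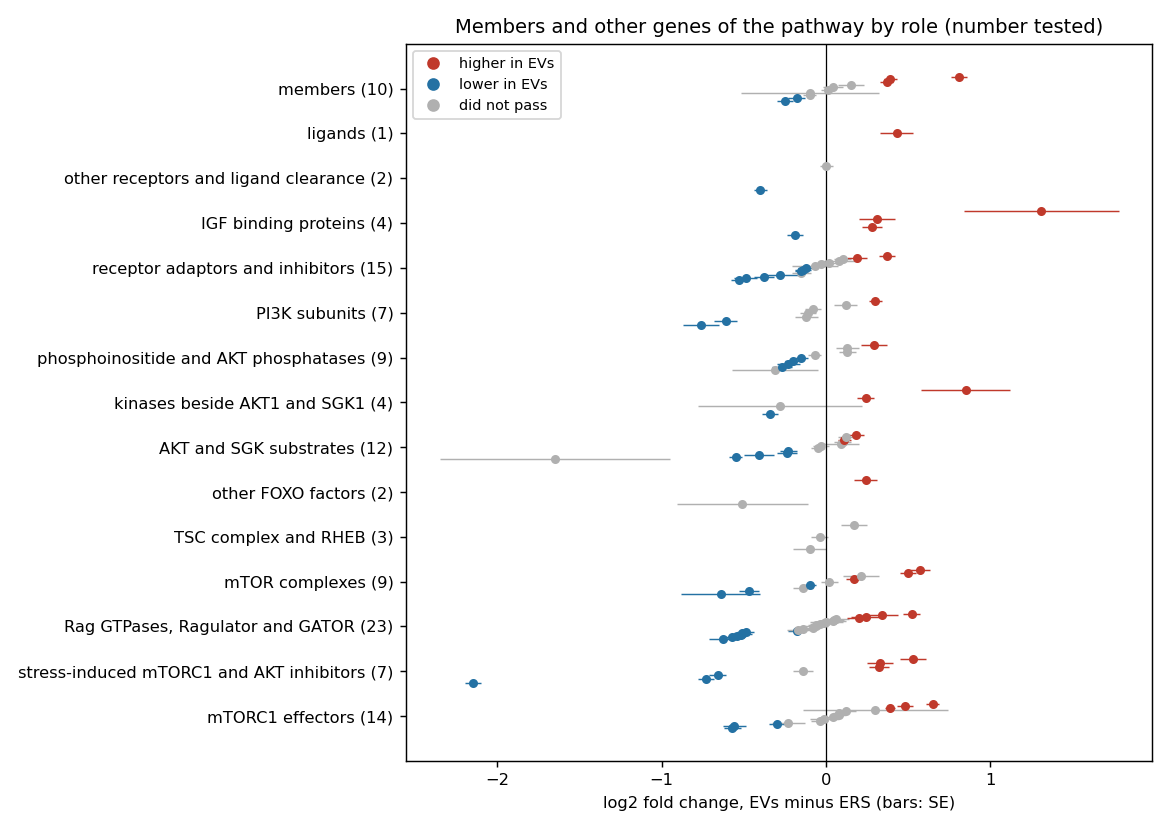
Log2 fold change, EVs minus ERS, of each tested gene (points, bars SE) in rows by role, with the number tested in brackets. Most roles hold genes on both sides of 0; Trib3 among the stress-induced inhibitors lies lowest, at -2.15, and Sgk1 is the highest member, at 0.81.

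Upstream of the receptors, insulin transcripts were nearly absent. Over the 6 libraries Ins1 had 1 count, Ins2 had 0 and Igf2 had 1. At 0 counts, up to 3 could have been missed (0.105 CPM in the smallest library), a limit for counting error alone. Igf1, the ligand of Igf1r, was the 1 ligand tested and rose, with 16.6, 16 and 16.3 CPM in EVs, against 11.1, 11.8 and 13.4 CPM in ERS (log2 fold change 0.43 ± 0.10, edgeR adjusted p = 0.00085). Ide, the protease that degrades insulin, fell to 225 ± 3.48 CPM in EVs, against 297 ± 3.33 CPM in ERS (-0.40 ± 0.04, adjusted p = 5.49e-09). Igf2r, which clears IGF2 and sorts lysosomal enzymes, averaged 276 CPM in both groups and did not pass (adjusted p = 0.976). Of the IGF binding proteins, which hold IGFs outside the cell, Igfbp7 rose (0.28 ± 0.06, adjusted p = 0.000248) and Igfbp4 fell (-0.19 ± 0.05, adjusted p = 0.00477). Igfbp2 at 0.87 ± 0.313 CPM in EVs and 0.347 ± 0.149 CPM in ERS (adjusted p = 0.0255) and Igfbp6 at 13.8 ± 1.31 CPM in EVs and 11.2 ± 0.813 CPM in ERS (adjusted p = 0.0194) rose too. The Igfbp2 call was lost without EVs replicate 2 (0.128), EVs replicate 3 (0.0961), ERS replicate 1 (0.0669) or ERS replicate 2 (0.125). The Igfbp6 call was lost without EVs replicate 2 (0.122), EVs replicate 3 (0.0513) or ERS replicate 3 (0.085).

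Next to the IRS proteins, 2 of 15 tested adaptors and inhibitors rose, 7 fell and 6 did not pass. Socs7, a SOCS-box protein that binds IRS proteins in mice, fell (log2 fold change -0.53 ± 0.05, edgeR adjusted p = 2.34e-09), as did Gab2, a docking protein for PI3K (-0.49 ± 0.07, 1.85e-06). Grb14, which binds and inhibits the active insulin receptor, rose (0.37 ± 0.05, 9.77e-07), while its relative Grb10 had 3 counts in all. Of 7 PI3K subunits, the catalytic Pik3cb (-0.61 ± 0.07, 2.99e-08) and Pik3cd (-0.76 ± 0.11, 2.03e-06) fell and the regulatory Pik3r2 rose (0.30 ± 0.04, 1.19e-06). The main catalytic subunit Pik3ca (-0.11 ± 0.05, 0.109) and the main regulatory subunit Pik3r1 (-0.08 ± 0.05, 0.216) did not pass. Pik3ca passed without EVs replicate 1 (0.0368) or ERS replicate 2 (0.031).

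Of 9 tested phosphatases that act on PI3K lipids or on AKT, 1 rose, 4 fell and 4 did not pass. Ppp2cb, a catalytic subunit of PP2A (log2 fold change -0.20 ± 0.05, edgeR adjusted p = 0.000831), and Inpp4a, a lipid 4-phosphatase (-0.27 ± 0.06, 0.00113), fell, and Inpp5k, a lipid 5-phosphatase, rose (0.29 ± 0.08, 0.00295).

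Of the kinases beside the members, Pdpk1, which encodes PDK1, the activator of both AKT and SGK, fell to 72.4, 65.4 and 70.6 CPM in EVs, against 86.4, 84.6 and 93.6 CPM in ERS (log2 fold change -0.34 ± 0.05, edgeR adjusted p = 1.08e-05). Akt2, the AKT tied to glucose uptake, rose with Akt1, to 124, 128 and 134 CPM in EVs, against 110, 111 and 106 CPM in ERS (0.24 ± 0.05, 0.000118). Sgk3 rose too, at 2.46 ± 0.246 CPM in EVs and 1.37 ± 0.345 CPM in ERS (0.85 ± 0.27, 0.0102), while Sgk2 at 0.534 ± 0.228 CPM in EVs and 0.654 ± 0.446 CPM in ERS did not pass (0.674). Of 12 substrates 2 rose, 4 fell and 6 did not pass. Those with the smallest p were Mdm2, the ubiquitin ligase of p53 (-0.55 ± 0.04, 7.47e-11), Gsk3b, a kinase that AKT inhibits (-0.23 ± 0.05, 0.000261), and Pfkfb2, a regulator of glycolysis (-0.41 ± 0.09, 0.000539), and all 3 fell.

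Foxo4 rose to 36.3 ± 1.19 CPM in EVs, against 30.7 ± 1.35 CPM in ERS (log2 fold change 0.24 ± 0.07, edgeR adjusted p = 0.00519), and Foxo6, at 0.619 ± 0.148 CPM in EVs and 0.884 ± 0.203 CPM in ERS, did not pass (0.315). Of the 3 listed partners of Tsc1 and Rheb, 0 passed by edgeR, DESeq2 or limma-voom, and 1 had an unadjusted edgeR p under 0.05 (Rhebl1). They were Tsc2, the GTPase-activating subunit, at 85.9 ± 5.76 CPM in EVs and 88.1 ± 4.22 CPM in ERS (0.604), Tbc1d7, a further subunit (0.416), and Rhebl1, at 32.1 ± 2.78 CPM in EVs and 28.5 ± 1.89 CPM in ERS (0.0754). Rhebl1 passed without EVs replicate 1 (0.0382) or ERS replicate 1 (0.0449), and with library size alone as the scaling (0.029). It also passed with upper-quartile factors (0.025), a filter of 1 CPM in 3 libraries (0.0459) or protein-coding genes only (0.0226).

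In the mTOR complexes 3 of 9 tested genes rose and 3 fell. Mtor itself had 120, 123 and 115 CPM in EVs, against 124, 113 and 116 CPM in ERS, overlapping values that did not pass (log2 fold change 0.02 ± 0.05, edgeR adjusted p = 0.767). Rptor, which encodes Raptor, the subunit that defines mTORC1, rose to 107, 110 and 108 CPM in EVs, against 79.8, 74.1 and 76.2 CPM in ERS (0.50 ± 0.05, 4.72e-09). Tti1, part of a chaperone complex for mTOR, rose as well (0.57 ± 0.06, 1.74e-08). Of mTORC2, Mapkap1, which encodes SIN1, fell (-0.47 ± 0.06, 3.16e-07) and Rictor rose slightly (0.17 ± 0.05, 0.00799), a call lost without ERS replicate 1 (0.0534). Deptor and Prr5l, named after their values were seen, fell too. The Deptor call (edgeR adjusted p = 0.0499) was lost under several settings, such as library size alone (0.258) and the DESeq2 test (0.0501). The Prr5l call was lost without EVs replicate 1 (0.0773), EVs replicate 2 (0.0957), ERS replicate 1 (0.12) or ERS replicate 3 (0.0673).

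Of 23 tested genes that signal amino acid supply to mTORC1, 4 rose, 8 fell and 11 did not pass. Rragc, a Rag GTPase that brings mTORC1 to the lysosome, fell to 88.9 ± 2.12 CPM in EVs, against 129 ± 6.38 CPM in ERS (log2 fold change -0.54 ± 0.05, edgeR adjusted p = 1.24e-09). Sec13, a GATOR2 subunit that also serves in COPII coats and nuclear pores, fell (-0.52 ± 0.05, 2.26e-09), and Depdc5, a subunit of the inhibitory GATOR1, rose (0.52 ± 0.05, 7.85e-09). Among the others that fell, and chosen after their values were seen, were the partners Flcn (-0.49), Fnip1 (-0.51) and Fnip2 (-0.57), which together act on RagC, the product of Rragc.

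Of 7 tested stress-induced inhibitors of AKT and mTORC1, 3 were higher, 3 lower and 1 did not pass. Trib3, a pseudokinase that binds AKT and is induced by ATF4 and CHOP, had 56.8, 63.6 and 60.5 CPM in EVs, against 279, 273 and 250 CPM in ERS (log2 fold change -2.15 ± 0.05, edgeR adjusted p = 9.58e-21). Sesn2, a leucine sensor that restrains GATOR2, had 85.6, 87.3 and 81.4 CPM in EVs, against 150, 143 and 130 CPM in ERS (-0.73 ± 0.05, 1.96e-11). Ddit4, which encodes REDD1, an activator of the TSC complex, had 173, 169 and 171 CPM in EVs, against 281, 286 and 245 CPM in ERS (-0.66 ± 0.05, 3.45e-11). In all 3 genes every EVs library lay below every ERS library. The genes of this role that rose were Sesn1 (0.33), Trib1 (0.53) and Trib2 (0.32), named after their values were seen. All 3 that fell are also on a list of 15 tested ATF4 targets, of which 14 fell and 1, Vldlr, rose (median log2 fold change -0.73, against 0.01 over all genes). The 14 include these 3 genes and Eif4ebp1, so the count and the median are not separate from them. Over all tested genes 24.7% fell. On that list Ddit3, which encodes CHOP, changed by -2.91 and Nupr1 by -2.28. All 12 ER chaperones fell (median -2.94), with Hspa5 at 952 ± 4.56 CPM in EVs and 10012 ± 256 CPM in ERS, Pdia4 at -3.12 and Hyou1 at -2.91.

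Among 14 mTORC1 effectors 3 rose, 3 fell and 8 did not pass, and the repressors of eIF4E, which mTORC1 inhibits, went opposite ways. Eif4ebp2 had 233, 222 and 228 CPM in EVs, against 148, 142 and 144 CPM in ERS (log2 fold change 0.65 ± 0.04, edgeR adjusted p = 2.1e-12). Eif4ebp1, also an ATF4 target, had 213, 223 and 217 CPM in EVs, against 339, 337 and 297 CPM in ERS (-0.57 ± 0.05, 1.96e-10). The groups did not overlap for either gene. Eif4b, a translation factor phosphorylated downstream of mTORC1, rose to 961 ± 12.8 CPM in EVs, against 731 ± 6.99 CPM in ERS (0.39 ± 0.03, 4.52e-10).

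Known FOXO targets moved both ways. Of 24 tested, 11 rose, 7 fell and 6 did not pass, and the median log2 fold change was 0.10. The share that passed was 75%, against 47.4% of all tested genes, not matched for level. The list includes Insr and Irs2, which did not pass, and Sesn1, Sesn3, Trib1, Rictor and Pik3ca from the roles above. Fbxo32, the ubiquitin ligase atrogin-1 that FOXO factors induce in wasting muscle, had 371, 361 and 352 CPM in EVs, against 145, 156 and 152 CPM in ERS (1.26 ± 0.04, edgeR adjusted p = 6.7e-18). Bnip3, a mitophagy receptor that hypoxia also induces, had 62.6, 59.6 and 64 CPM in EVs, against 31.2, 31.2 and 31.8 CPM in ERS (0.98 ± 0.06, 1.09e-12). Gadd45a, a growth arrest gene that p53 and ATF4 also induce, had 7.97, 9.79 and 8.48 CPM in EVs, against 35.8, 38.4 and 31.6 CPM in ERS (-2.01 ± 0.10, 1.04e-14). In each of these genes the groups lay far apart, Fbxo32 and Bnip3 higher and Gadd45a lower in EVs.

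**Figure D4:**
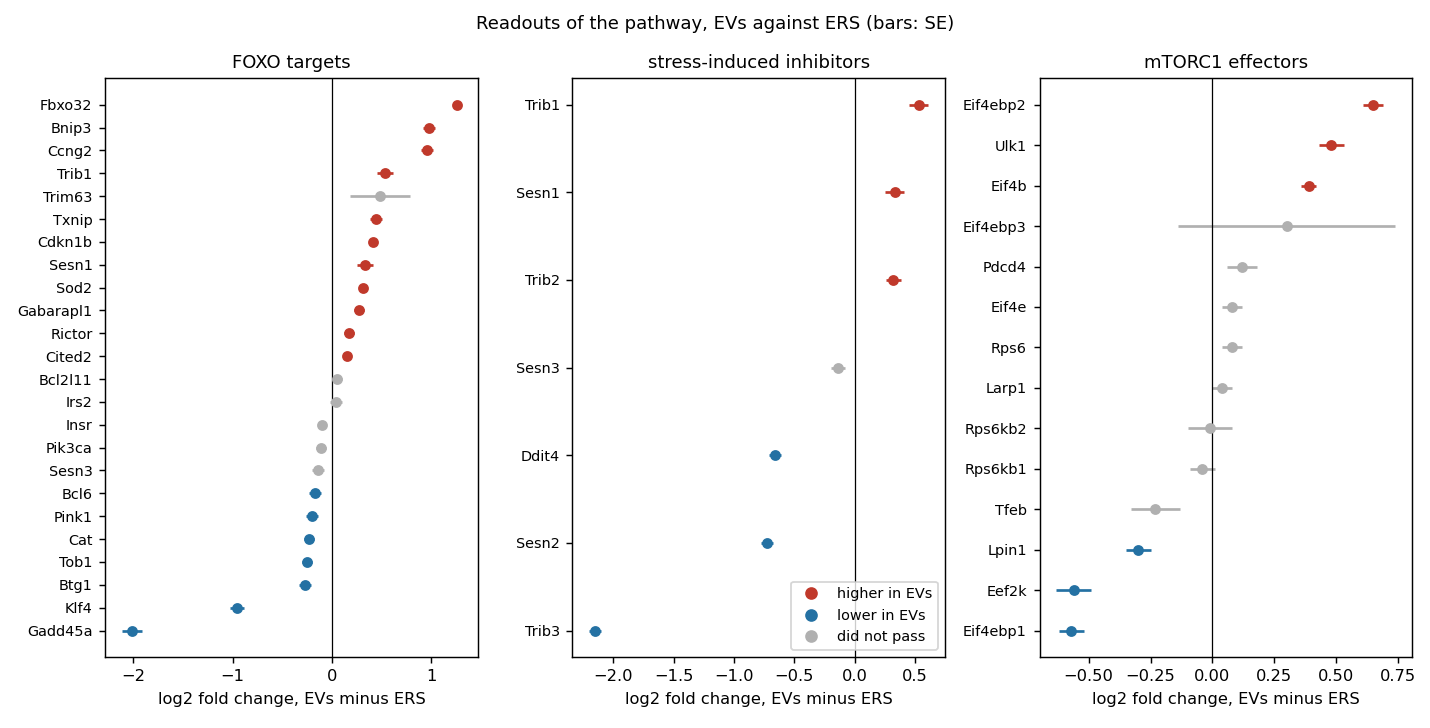
Log2 fold change, EVs minus ERS (points, bars SE), of tested FOXO targets, stress-induced inhibitors and mTORC1 effectors, each panel with its own horizontal scale. The FOXO targets run from Gadd45a at -2.01 to Fbxo32 at 1.26, the inhibitors from Trib3 at -2.15 to Trib1 at 0.53, and the effectors from Eif4ebp1 at -0.57 to Eif4ebp2 at 0.65.

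Genes known to respond to glucocorticoids, serum or SREBP were read beside the members. For comparison, 47.4% of all tested genes passed, 22.6% higher and 24.7% lower in EVs, shares that are not matched for level. Of 9 tested genes known to be induced by glucocorticoids, 3 were higher, 4 lower and 2 did not pass (median log2 fold change -0.04). Sgk1 and Fkbp5, a cochaperone of the glucocorticoid receptor (763 ± 21 CPM in EVs, 527 ± 2.15 CPM in ERS, 0.53 ± 0.04, edgeR adjusted p = 4.84e-12), rose, while Ddit4 fell, so this list did not move one way. The serum-response list of immediate-early genes had 10 tested, with 7 higher, 2 lower and 1 that did not pass (median 0.66). Egr1 had 331 ± 7.67 CPM in EVs and 113 ± 4.07 CPM in ERS (1.55 ± 0.04, adjusted p = 1.31e-19), Junb changed by 1.15 ± 0.06 and Fos by 1.83 ± 0.12. The genes that fell were Srf (-0.22) and Cyr61 (-0.25), named after their values were seen, and the Srf call was lost without EVs replicate 2 (0.0707) or ERS replicate 1 (0.142). Of 15 tested targets of SREBP, the sterol and lipid factors that AKT and mTORC1 are known to promote, 10 rose and 5 did not pass (median 0.35). None fell by edgeR, also at an unadjusted p under 0.05 (0 genes), by DESeq2 (0) or by limma-voom (0). Among the targets that rose, Idi1 changed by 0.99 ± 0.08 and Stard4 by 0.72 ± 0.05. Scap, the escort protein of SREBP and one of the genes nearest to Sgk1 in pattern, had 414 CPM in EVs and 231 CPM in ERS. Scap is not on the SREBP list. It was picked for its likeness to Sgk1, so its higher level in EVs follows from that choice.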

How the data were processed

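Bulk RNA-seq of 6 samples labelled NIT-1 was analysed. The authors used HISAT2 2.2.1 as the aligner, per the labels' protocols, and featureCounts 2.0.6 is named in the submitters' processing notes. They deposited 1 table of raw gene counts, with a column for each sample and no normalization. The deposited table also gives gene start, end and length in bases as other values. The handling of strand and of reads with several positions is not given in the sources used here. Antisense and duplicated genes are therefore uncertain. The notes name the build mm39, but 98.33% of the gene IDs shared with GENCODE M21 have the start and end of GRCm38, so coordinates are read as GRCm38.

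The table has 54532 rows, of which 28789 held a count, and 27 symbols that had become dates were restored from gene IDs. Libraries held 28654248 to 32550268 counts, and the floor of 3 counts behind a value of 0 is 0.0922 to 0.105 CPM. Libraries of a group differed by more than sampling noise (chi-square per gene 3.71 to 7.78, against 97.6 to 109 between groups), so all 6 were kept.

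EVs were compared with ERS by edgeR 4.0.16 in R 4.3.3: TMM factors (0.9833 to 1.016), filterByExpr (count minimum 10, total 15), the two-sided quasi-likelihood F test without a block, and Benjamini-Hochberg adjustment over 16844 genes. The common biological coefficient of variation was 6.05%. Each SE is the log2 fold change over the root of F, and the 95% interval from the t distribution with the fit's degrees of freedom. RPKM is TMM-scaled CPM per kilobase of the deposited gene length. Sequences are RefSeq promoters of GRCm38.p6, which had 9 of the 10 members.

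The members and all lists were chosen with earlier results of these data known. Genes were named by rule: the members, up to 3 per role or list by smallest adjusted p, every tested gene of a role with 5 or fewer, 21 genes of interest, and the 3 nearest in pattern to Sgk1 and Akt1. Some genes that the rule names are not reported here. Alternatives were DESeq2 size factors, library size alone, upper-quartile factors, no filter, a filter of 1 CPM in 3 libraries, limma-voom (limma 3.58.1) and DESeq2 1.42.0 as tests, edgeR's glmTreat at a fold change of 1.2, an adjusted p under 0.01, the replicate number as a block, protein-coding genes only, and leaving out each library in turn.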

Additional observations from a re-analysis of the deposited data

How the results depend on the processing

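Of 169 checks of members under 17 settings, 165 stayed on the same side of the threshold. A change of sign was not counted where neither fit passed. Foxo3 (log2 fold change -0.01 to 0.06) and Irs2 (-0.01 to 0.08) changed sign in this way. Igf1r (0.34 to 0.41), Akt1 (0.36 to 0.43) and Sgk1 (0.76 to 0.86) passed under all 17 settings. Against a fold change of 1.2 (glmTreat) 0 members were lower, since Tsc1 and Rheb were lost, all genes counted 1656 higher and 1952 lower, other genes of the pathway 9 and 20, FOXO targets 6 and 2, serum-response genes 0 lower and cell type markers 2 lower. At an adjusted p under 0.01, 1 serum-response gene and 2 markers were lower, and with library size alone or upper-quartile factors 2 markers were lower. The scalings moved the median of all genes by 0.003 to 0.044. Same-numbered samples did not deviate together (correlations -0.043, 0.016 and -0.014), and with the replicate number as a block 3679 genes were higher and 4058 lower, and 3 members higher and 2 lower. Leaving out 1 library in turn gave 3277 to 3616 genes higher and 3785 to 4092 lower, 3 members higher and 2 to 3 lower (Insr), 20 to 27 and 33 to 39 other genes of the pathway, 10 to 11 and 6 to 9 FOXO targets, 6 to 7 and 1 to 2 serum-response genes, and 2 to 3 and 2 to 5 markers. The 1 serum-response gene came without EVs replicate 2 or ERS replicate 1, and the 2 markers without EVs replicate 2 or 3. The causes were not tested beyond the construction of each setting. Depth limits Irs1, which was not tested under the 1 CPM filter.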
